A study of Homo sapiens with 30 samples.

Results

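BIRC3 and CFLAR, with 6 related genes, encode proteins that act downstream of death receptors or in the NF-κB pathway. Most of them hold back cell death or switch off NF-κB, whereas RIPK1 is part of the signalling machinery itself. These 8 genes (BIRC2, BIRC3, BIRC6, XIAP, CFLAR, RIPK1, TNFAIP3 and NFKBIA) were taken by name from the 61487 genes of the count table and followed over all 30 libraries. BIRC3 and CFLAR were picked because they responded to pladienolide B (PB) in control cells, and the other 6 for their function. The values of BIRC3 and CFLAR in comparisons that use control libraries are therefore given as a description, without a test. All 8 genes passed the filter on low counts, which kept 31495 genes.

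RNA was sequenced from eHAP FNLS cells, a haploid human cell line carrying the FNLS cytosine base editor, after 3 h with 2 nM PB or with its solvent DMSO. PB is a small molecule that binds the SF3b complex of the spliceosome and inhibits splicing. The genotypes were SUGP1 E554K and SUGP1 G603N (changes in a splicing factor with a G-patch domain), PHF5A 2xTL (an insertion of 6 nt) and SF3B1 T1080I (changes in SF3b subunits that line the pocket for the compound), and control cells, each with 3 PB and 3 DMSO libraries. All cells share the parental line and the base editor. Mutant cells carry an sgRNA against the edited gene, and control cells a non-targeting sgRNA. The mutant libraries of a genotype come from 3 monoclonal lines, each measured with PB and with DMSO. The control libraries are 3 replicates of 1 line, so that the spread in control is not a spread between clones. The SUGP1 E554K and SUGP1 G603N lines are called SUGP1 lines and the PHF5A 2xTL and SF3B1 T1080I lines SF3b-pocket lines (6 lines each).

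Library totals were 3.16e+07 to 7.50e+07 counts, so that 1 CPM (counts per 1000000, scaled by TMM) stands for 31.6 to 75 counts. The 4 libraries of the third line of SUGP1 E554K and of SUGP1 G603N correlated least with the others. Their median correlation with the other libraries was 0.939 to 0.954 over 11999 genes, against 0.955 to 0.976 in the other 26 libraries. No gap separates these ranges, and the third lines were singled out after seeing the data. Changes over the SUGP1 lines and the counts of called genes are given with and without them. Of 12 haematopoietic marker genes, KIT alone averaged at least 1 CPM (11.8 CPM), and PTPRC averaged 0.142 CPM. That level was reached by 5 of 10 mesenchymal genes (highest VIM, 281 CPM) and 5 of 6 neural genes (highest SOX2, 891 CPM). It was also reached by 2 of 7 epithelial genes (highest KRT18, 36.7 CPM) and 0 of 4 endothelial genes. COL1A2 (0.449 CPM), COL3A1 (0.0852 CPM) and GFAP (0.375 CPM) stayed below it, so no cell type is read from these lists. No tested gene of the haematopoietic, mesenchymal, epithelial, endothelial and neural marker lists was called with PB in control. Of all genes, 4.3% were called there, and with 4 to 9 tested genes per list nothing is read from this count.

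Death receptors of the TNF receptor family recruit adaptor proteins, RIPK1 and caspase-8 when they bind their ligands. The inhibitor of apoptosis proteins (IAPs) restrain this machinery: BIRC2 and BIRC3 (cIAP1 and cIAP2) are ubiquitin ligases that modify RIPK1 in the receptor complex, XIAP binds and blocks active caspases, and BIRC6 is a very large ubiquitin-conjugating member of the family. CFLAR (cFLIP) resembles caspase-8 and competes with it for the adaptor FADD. Ubiquitinated RIPK1 serves as a scaffold for NF-κB activation, and NF-κB induces its own brakes, among them NFKBIA (IκBα), which holds NF-κB in the cytoplasm, and TNFAIP3 (A20), a ubiquitin-editing enzyme. BIRC3, TNFAIP3 and NFKBIA are textbook NF-κB target genes.

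The start regions of these 3 target genes and of CFLAR are shown because the 3 are known targets of the same factor, yet their RNA did not move together with PB. Each is the 250 bases before a transcription start in RefSeq (GRCh38.p14), 5′ to 3′ on the gene's strand, and capitals mark matches to the 10-letter NF-κB consensus on either strand. The CFLAR window shown holds a match, whereas the further start windows of CFLAR, not shown, hold none. The windows are chr11:102317234-102317483 (BIRC3, plus strand), chr6:137867009-137867258 (TNFAIP3, plus strand), chr14:35404750-35404999 (NFKBIA, minus strand) and chr2:201118466-201118715 (CFLAR, plus strand).
BIRC3: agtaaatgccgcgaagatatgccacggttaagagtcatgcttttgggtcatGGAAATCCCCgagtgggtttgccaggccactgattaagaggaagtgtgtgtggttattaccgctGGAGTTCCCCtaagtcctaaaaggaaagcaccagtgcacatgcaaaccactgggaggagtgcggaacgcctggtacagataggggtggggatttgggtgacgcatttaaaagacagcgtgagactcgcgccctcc
TNFAIP3: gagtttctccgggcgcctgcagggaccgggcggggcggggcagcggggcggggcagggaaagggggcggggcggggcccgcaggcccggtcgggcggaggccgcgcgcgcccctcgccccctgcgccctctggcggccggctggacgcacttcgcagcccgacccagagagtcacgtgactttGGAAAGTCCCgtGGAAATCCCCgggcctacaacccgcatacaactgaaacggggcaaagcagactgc
NFKBIA: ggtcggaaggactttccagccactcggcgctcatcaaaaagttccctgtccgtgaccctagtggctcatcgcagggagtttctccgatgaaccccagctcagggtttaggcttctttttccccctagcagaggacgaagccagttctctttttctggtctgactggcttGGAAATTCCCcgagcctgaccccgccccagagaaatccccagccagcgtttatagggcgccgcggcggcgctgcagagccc
CFLAR: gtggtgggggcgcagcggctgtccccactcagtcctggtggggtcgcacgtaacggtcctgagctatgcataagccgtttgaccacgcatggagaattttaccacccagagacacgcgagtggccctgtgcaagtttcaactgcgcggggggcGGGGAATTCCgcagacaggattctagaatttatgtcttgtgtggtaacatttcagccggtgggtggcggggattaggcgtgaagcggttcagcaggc

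The consensus was present in 9.96% of the 35116 start windows of 27305 genes. All 8 genes had at least 1 window (17 in all), and 5 of the 17 windows, 1 each of BIRC3, BIRC6, CFLAR, TNFAIP3 and NFKBIA, held a match. BIRC3 and TNFAIP3 have 2 matches each, and the stretch GGAAATCCCC, which fits the consensus when read on the opposite strand, occurs in both, 199 to 190 bases before the start of BIRC3 and 55 to 46 before that of TNFAIP3. In BIRC6 the single matched stretch reads as a match on both strands. A match describes letters only, and binding of NF-κB was not measured in these libraries.

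Without the drug, the 8 genes differed widely in level. Per kilobase of exon, control cells with DMSO had 12.6 CPM per kb of BIRC6, 11.9 of XIAP, 10.5 of NFKBIA, 7.27 of BIRC2, 4.62 of RIPK1, 2.27 of CFLAR, 0.612 of TNFAIP3 and 0.0505 of BIRC3. The first 3 of this order did not differ beyond their spread (SD 2.96 for BIRC6, 2.44 for XIAP and 2.13 for NFKBIA, n = 3), while the SDs of the others were 0.849 or less. BIRC3 was close to silent in every DMSO group, with 7 to 49 counts per library, so that its values rest on few reads. Its lowest and highest CPM over all 30 libraries differed 40.2-fold, against 1.68-fold (XIAP) to 4.6-fold (TNFAIP3) for the other 7 genes.

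**Figure D1:**
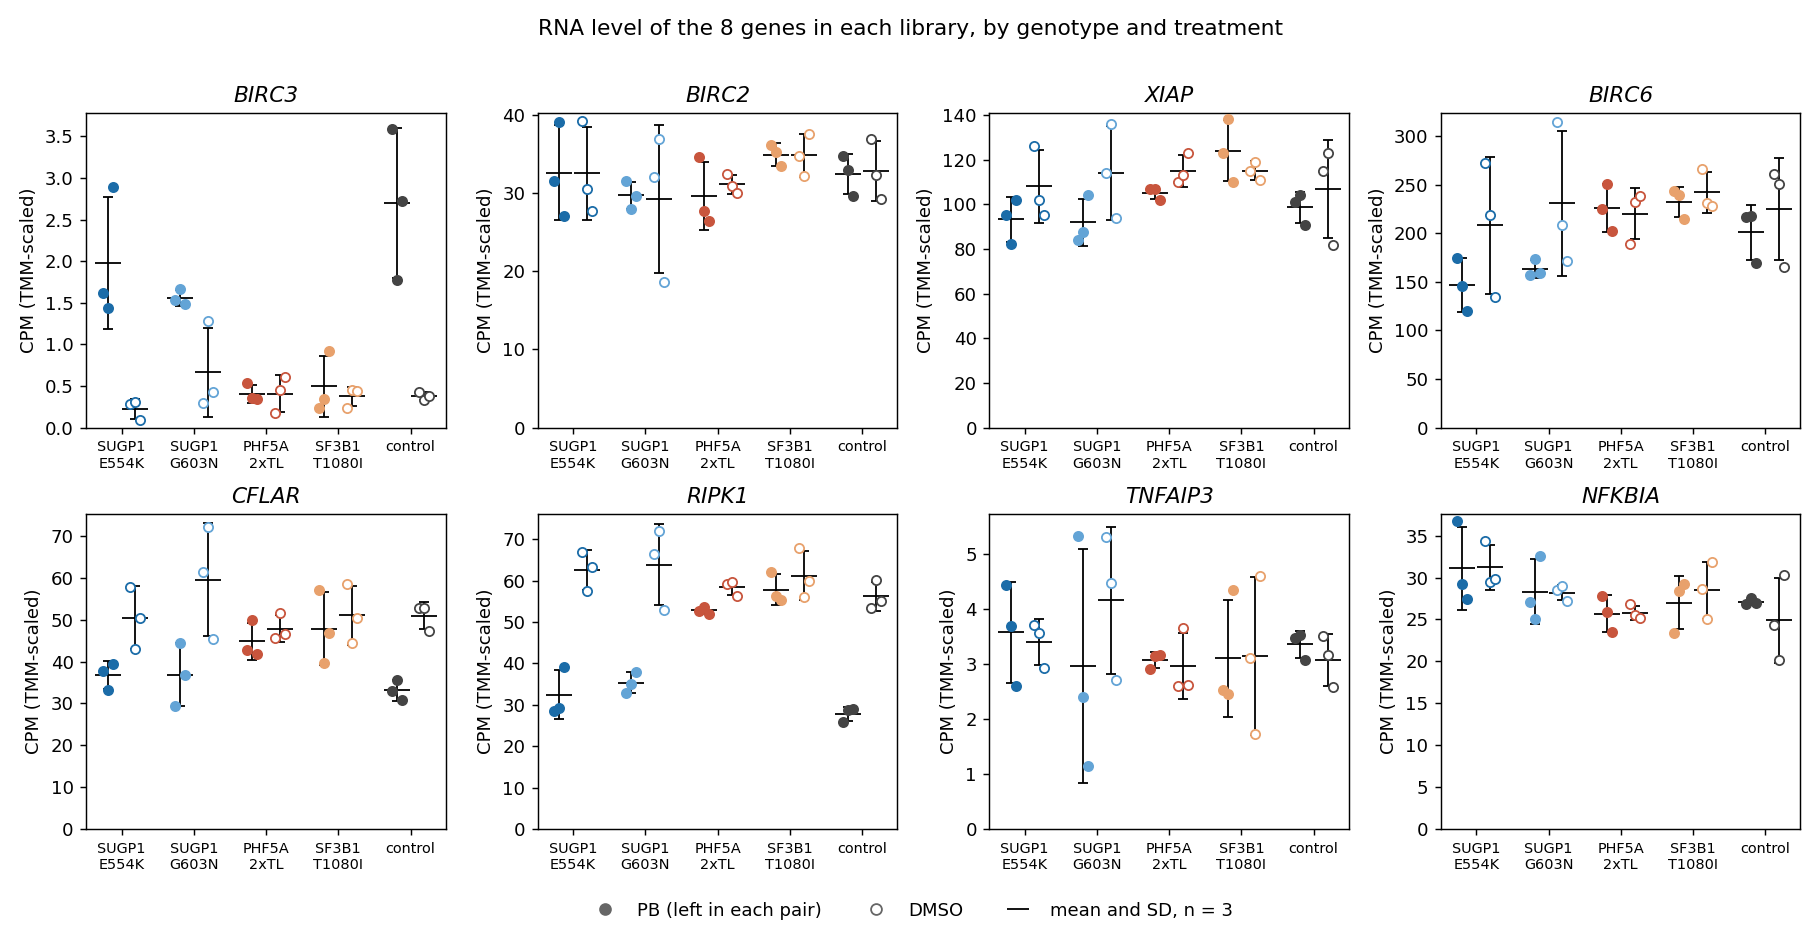
RNA level (CPM, linear axis from 0) of each of the 8 genes in every library, with PB (filled) left of DMSO (open) in each genotype, and bars for the mean and SD of 3 libraries. RIPK1 and CFLAR sit lower, and BIRC3 higher, with PB in the SUGP1 lines and in control, while NFKBIA and BIRC2 overlap between PB and DMSO in every genotype.

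RIPK1 gave the clearest response. In SUGP1 E554K, its level was 28.6, 29.3 and 39.2 CPM with PB, against 66.9, 57.4 and 63.2 CPM with DMSO. In SUGP1 G603N, it was 32.8, 35.1 and 37.9 CPM with PB, against 66.4, 72 and 52.9 CPM with DMSO. In control, it was 25.8, 28.7 and 28.9 CPM with PB, against 53.4, 60.2 and 55.1 CPM with DMSO. PB and DMSO libraries did not overlap in any of these 3 genotypes, and every PB library lay below 40 CPM. In PHF5A 2xTL, RIPK1 was 52.6, 53.7 and 51.9 CPM with PB, against 59.2, 59.6 and 56.3 CPM with DMSO. In SF3B1 T1080I, it was 62.1, 56.2 and 55.3 CPM with PB, against 67.8, 56 and 59.8 CPM with DMSO. The PHF5A 2xTL libraries did not overlap but lay close together, and those of SF3B1 T1080I overlapped.

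With edgeR's quasi-likelihood test, adjusted over all 31495 genes by the Benjamini-Hochberg method, RIPK1 fell in SUGP1 E554K (log2 fold change -0.95 ± 0.12 SE, adjusted p = 2.22e-05), in SUGP1 G603N (-0.86 ± 0.12, adjusted p = 9.23e-05) and in control (-1.02 ± 0.12, adjusted p = 7.91e-06). Mean levels with PB were 0.517, 0.553 and 0.494 of those with DMSO in these 3 genotypes. Over the 6 SUGP1 lines the change was -0.90 ± 0.09 (adjusted p = 4.68e-08), with a lower level in 6 of 6 lines. Without the third lines it was -1.01 (adjusted p = 3.73e-08), and the third lines had the smallest changes of their genotypes, -0.69 in SUGP1 E554K and -0.48 in SUGP1 G603N. In the 6 SF3b-pocket lines the change was -0.11 ± 0.09 (adjusted p = 1), with a lower level in 5 of 6 lines. Such bulk values cannot tell fewer cells that express a gene from less RNA per cell.

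The difference between the SUGP1 and the SF3b-pocket lines was itself tested, and RIPK1 was the gene among the 8 that passed without a line block. With the line as a block, which called 1873 genes in place of 589, BIRC3 (adjusted p = 0.0166), BIRC6 (0.0267) and CFLAR (0.00741) passed as well. For RIPK1, the SUGP1 response minus the SF3b-pocket response was -0.79 ± 0.12 on the log2 scale (adjusted p = 5.20e-04; 7.98e-06 to 0.00225 over 31 alternatives). Of all tested genes, 1.87% were called in this comparison, and 1.47% were called lower. Without the third SUGP1 lines the RIPK1 difference was -0.89 (adjusted p = 4.60e-05), and 8% of all genes were called, 4.76% higher and 3.24% lower. RIPK1 and BIRC6 were then the 2 of the 8 genes called. The RIPK1 response was also less negative than in control by 0.87 ± 0.17 in PHF5A 2xTL (adjusted p = 0.0232) and by 0.94 ± 0.17 in SF3B1 T1080I (adjusted p = 0.013), comparisons with 0.26% and 0.286% of all genes called (0.197% and 0.251% called higher, 0.0635% and 0.0349% called lower). The PHF5A 2xTL difference lost its call without any 1 of its 6 libraries (adjusted p = 0.0514 to 0.0958) or without control DMSO replicate 2 (0.0893), control PB replicate 1 (0.09) or control PB replicate 3 (0.0558), and on the unfiltered table (0.0884). The SF3B1 T1080I difference lost it without SF3B1 T1080I DMSO replicate 2 (0.0617) or control DMSO replicate 2 (0.0586). These 2 differences share their control libraries. For SUGP1 E554K minus control the RIPK1 difference was 0.07 ± 0.17, and for SUGP1 G603N minus control it was 0.16 ± 0.17 (adjusted p = 1 for both). Of the 6 genes not chosen on the control libraries, edgeR and DESeq2 called none in these 2 comparisons and none had an unadjusted p under 0.05. Of all genes, edgeR called 0% and DESeq2 called 0 of 31492 in each of the 2. In edgeR, 2.04% of all genes in SUGP1 E554K and 2.77% in SUGP1 G603N had an unadjusted p under 0.05. When only the 6 libraries of a genotype entered the fit, RIPK1 was no longer called in SUGP1 E554K (-0.90, adjusted p = 0.0716) or in SUGP1 G603N (-0.82, adjusted p = 0.0853).

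CFLAR, the caspase-8 relative, fell with PB over the SUGP1 lines. In control, the comparison in which it was chosen, it had 33, 35.7 and 30.7 CPM with PB, against 52.7, 52.9 and 47.4 CPM with DMSO, a log2 fold change of -0.62 ± 0.16. In SUGP1 E554K, it had 37.8, 33.1 and 39.4 CPM with PB, against 57.9, 43 and 50.5 CPM with DMSO. In SUGP1 G603N, it had 29.3, 44.4 and 36.9 CPM with PB, against 61.3, 72.1 and 45.4 CPM with DMSO. PB and DMSO libraries did not overlap within either SUGP1 genotype, although those of SUGP1 G603N nearly met.

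Over the 6 SUGP1 lines CFLAR fell by 0.57 ± 0.12 on the log2 scale (adjusted p = 9.68e-04), with a lower level in 6 of 6 lines (line changes of -1.06 to -0.30). Without the third lines the change was -0.62 (adjusted p = 0.00146). Within single genotypes it fell in SUGP1 G603N (-0.69 ± 0.16, adjusted p = 0.0128), a call that ended without DMSO replicate 1 (0.0517), DMSO replicate 2 (0.116), PB replicate 1 (0.118) or PB replicate 3 (0.0583), and when only its 6 libraries were fitted (0.297). In SUGP1 E554K the change was -0.46 ± 0.16 (adjusted p = 0.118), and with the line as a block it was -0.45 (adjusted p = 0.00626). In the SF3b-pocket lines all 6 lines were slightly lower with PB (-0.17 to -0.04), and the change was -0.10 ± 0.12 (adjusted p = 1). Mean levels there were 44.8 ± 4.49 with PB and 47.9 ± 3.11 CPM with DMSO in PHF5A 2xTL, and 47.8 ± 8.71 with PB and 51.1 ± 7.07 CPM with DMSO in SF3B1 T1080I (SD, n = 3). The SUGP1 response minus the SF3b-pocket response was -0.48 ± 0.16, which did not pass (adjusted p = 0.155). With the line as a block the difference passed (-0.47, adjusted p = 0.00741), as it did without SUGP1 G603N DMSO replicate 3 (-0.56, adjusted p = 0.0459). Without the third SUGP1 lines it was -0.53 (adjusted p = 0.0574).

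BIRC3 moved the other way. In control, the comparison in which it was chosen, it had 3.59, 1.78 and 2.72 CPM with PB, against 0.426, 0.337 and 0.377 CPM with DMSO (134, 78 and 120 counts against 18, 18 and 17), a log2 fold change of 2.82 ± 0.56. In SUGP1 E554K, it had 1.62, 1.44 and 2.89 CPM with PB, against 0.282, 0.313 and 0.0893 CPM with DMSO. In SUGP1 G603N, it had 1.53, 1.67 and 1.49 CPM with PB, against 0.292, 1.28 and 0.426 CPM with DMSO. PB libraries lay above DMSO libraries in all 3 genotypes, but the DMSO library of the second SUGP1 G603N line, at 49 counts, came near the PB level.

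Over the 6 SUGP1 lines BIRC3 rose by 2.20 ± 0.39 on the log2 scale (adjusted p = 2.72e-04), 4.58-fold, with a higher level in 6 of 6 lines. Line changes ran from 0.37 in the second SUGP1 G603N line to 4.48 in the third SUGP1 E554K line, whose DMSO library held 7 counts. Without the third lines the rise was 1.75 (adjusted p = 0.00575). BIRC3 rose in SUGP1 E554K (3.14 ± 0.58, adjusted p = 0.00146), and that change was 3.20 (adjusted p = 0.0704) when only its 6 libraries were fitted and 2.39 (adjusted p = 0.0297) without the third lines. In SUGP1 G603N the change of 1.25 ± 0.53 did not pass (adjusted p = 0.222), and without DMSO replicate 2 it was 2.12 (adjusted p = 0.0513).

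In the SF3b-pocket lines BIRC3 showed no common direction, being higher with PB in 2 of 6 lines. PHF5A 2xTL had 0.535, 0.351 and 0.339 CPM with PB, against 0.171, 0.451 and 0.603 CPM with DMSO. SF3B1 T1080I had 0.238, 0.341 and 0.92 CPM with PB, against 0.241, 0.447 and 0.44 CPM with DMSO. The groups overlapped, and the change was 0.20 ± 0.40 (adjusted p = 1). The SUGP1 response exceeded the SF3b-pocket response by 1.99 ± 0.55, just outside the threshold (adjusted p = 0.0585). The difference passed with the line as a block (2.14, adjusted p = 0.0166), with DESeq2 (2.04, adjusted p = 0.00953), with at least 1 CPM in 3 libraries as the filter (2.05, adjusted p = 0.0334), and without SUGP1 G603N DMSO replicate 2 (2.42, adjusted p = 0.0138), PHF5A 2xTL DMSO replicate 1 (2.18, adjusted p = 0.0388) or SF3B1 T1080I PB replicate 3 (2.36, adjusted p = 0.0217). Without the third SUGP1 lines it was 1.55 (adjusted p = 0.1).

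**Figure D2:**
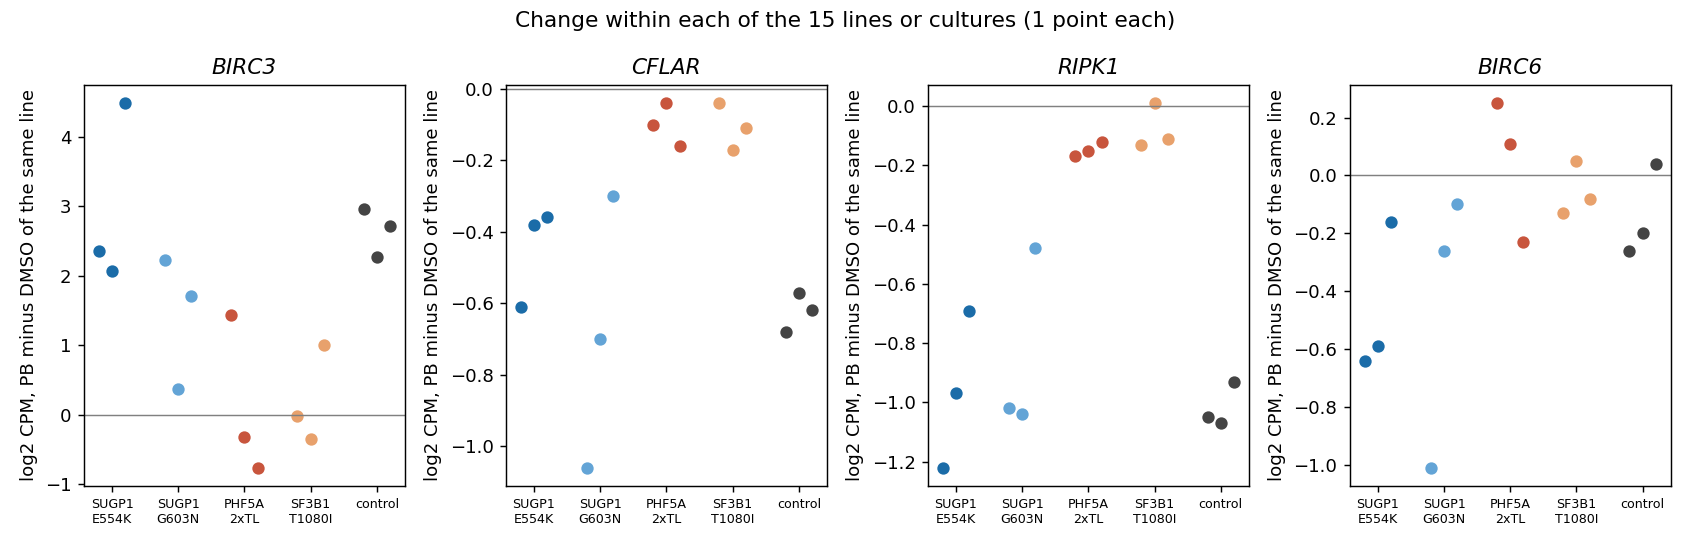
Change with PB within each line or control culture, as log2 CPM of the PB library minus that of the same-numbered DMSO library, for BIRC3, CFLAR, RIPK1 and BIRC6, with 1 point per line and 0 as a grey line. In the 6 SUGP1 lines all points are above 0 for BIRC3 and below 0 for the other 3 genes, and for RIPK1 the SF3b-pocket lines lie between -0.17 and 0.01.

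BIRC2 lies directly downstream of BIRC3 on chromosome 11 (BIRC3 at 102317450-102339403, BIRC2 at 102347211-102378670, both on the plus strand, hg38) and encodes the closest relative of its protein. Its level with PB did not follow that of BIRC3. BIRC2 averaged 32.6 ± 6.08 CPM with PB and 32.5 ± 5.97 CPM with DMSO in SUGP1 E554K, and 32.4 ± 2.58 CPM with PB and 32.8 ± 3.84 CPM with DMSO in control (SD, n = 3). Over the SUGP1 lines its change was 0.02 ± 0.13 (adjusted p = 0.954), with 2 of 6 lines higher, and -0.04 without the third lines (adjusted p = 0.857). Annotated genes overlap neither BIRC2 nor BIRC3.

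The other 2 IAP genes had the highest CPM of the 8, and their changes with PB were smaller than that of RIPK1. BIRC6 (chromosome 2, 32357028-32618899, plus strand) had 175, 146 and 120 CPM with PB, against 272, 219 and 134 CPM with DMSO in SUGP1 E554K. In SUGP1 G603N, it had 157, 174 and 159 CPM with PB, against 314, 208 and 171 CPM with DMSO. The groups overlapped in SUGP1 E554K and in SUGP1 G603N, but the PB library was the lower one in 6 of 6 lines (-1.01 to -0.10), with the smallest changes in the third lines. BIRC6 fell by 0.50 ± 0.15 over the SUGP1 lines (adjusted p = 0.0234), and by 0.58 without the third lines (adjusted p = 0.00375). This call ended on the SUGP1 libraries alone (adjusted p = 0.129) and without any 1 of 7 libraries: SUGP1 E554K DMSO replicate 1 (0.11) or 2 (0.0522), PB replicate 2 (0.0537) or 3 (0.0764), and SUGP1 G603N DMSO replicate 1 (0.118), PB replicate 1 (0.0575) or 3 (0.0516). Within SUGP1 E554K the change was -0.51 ± 0.21 (adjusted p = 0.205), and without its DMSO replicate 3 it was -0.74 (adjusted p = 0.026). With the line as a block BIRC6 was also called in SUGP1 E554K (-0.46, adjusted p = 0.0139), in SUGP1 G603N (-0.45, adjusted p = 0.0194) and for the difference from the SF3b-pocket lines (-0.45, adjusted p = 0.0267, against 0.31 without the block). That difference also passed without the third lines (-0.57, adjusted p = 0.0473). In control BIRC6 averaged 201 ± 28.2 CPM with PB and 225 ± 52.8 CPM with DMSO (log2 fold change -0.16 ± 0.21, adjusted p = 0.833).

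BIRC6 spans 261872 bases and contains 7 annotated genes, among them ENSG00000276334, a transcript on the same strand within an intron (32521927-32523547). Its level was 2.66 ± 1.01 CPM with PB and 0.92 ± 0.476 CPM with DMSO in SUGP1 E554K, and 1.55 ± 0.529 CPM with PB and 0.907 ± 0.571 CPM with DMSO in SUGP1 G603N (SD, n = 3). Over the SUGP1 lines it rose by 1.16 ± 0.32 (adjusted p = 0.0171) while BIRC6 fell. In the SF3b-pocket lines its change was -0.30 ± 0.32 (adjusted p = 1), and in control it averaged 1.94 ± 0.757 CPM with PB and 0.873 ± 0.194 CPM with DMSO (1.15 ± 0.46, adjusted p = 0.205). It is named after its values were seen, and its change without the third lines is not given here. No other tested gene within BIRC6 was called over the SUGP1 lines. On the same strand, ENSG00000276517 changed by 0.55 ± 0.28 (adjusted p = 0.222) and ENSG00000274159 by 2.14 ± 0.96 (adjusted p = 0.157). ENSG00000279544, also on that strand, changed by -0.30 ± 0.38 (adjusted p = 0.682). On the opposite strand, BIRC6-AS2 changed by -1.10 ± 0.72 (adjusted p = 0.355).

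XIAP (X chromosome, 123859724-123913979, plus strand) averaged 93.3 ± 9.98 CPM with PB and 108 ± 16.3 CPM with DMSO in SUGP1 E554K, and 91.9 ± 10.6 CPM with PB and 114 ± 21 CPM with DMSO in SUGP1 G603N (SD, n = 3). Its change over the SUGP1 lines was -0.26 ± 0.10 (adjusted p = 0.0898), with 4 of 6 lines lower. It passed with the line as a block (-0.26, adjusted p = 0.0278), without the third lines (-0.39, adjusted p = 0.00961) and without SUGP1 G603N DMSO replicate 3 (-0.33, adjusted p = 0.024). Within SUGP1 G603N the change was -0.32 ± 0.14 (adjusted p = 0.256), and without the third line -0.47 (adjusted p = 0.0459). The SF3b-pocket change was -0.01 ± 0.10 (adjusted p = 1).

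The 2 NF-κB feedback genes did not pass in any comparison or alternative. NFKBIA (chromosome 14, 35401511-35404749, minus strand) had 36.7, 29.2 and 27.4 CPM with PB, against 34.3, 29.5 and 29.8 CPM with DMSO in SUGP1 E554K. In control, it had 26.8, 27.5 and 27 CPM with PB, against 24.3, 20.2 and 30.3 CPM with DMSO. PB libraries overlapped DMSO libraries in both, and the change was 0.00 ± 0.10 over the SUGP1 lines (adjusted p = 0.999), -0.04 ± 0.10 over the SF3b-pocket lines (adjusted p = 1) and 0.12 ± 0.14 in control (adjusted p = 0.823). Without the third lines the change of NFKBIA over the SUGP1 lines was 0.01 (adjusted p = 0.973).

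TNFAIP3 (chromosome 6, 137867188-137883312, plus strand) was lower and more scattered, at 48 to 308 counts per library. It averaged 3.57 ± 0.919 CPM with PB and 3.39 ± 0.417 CPM with DMSO in SUGP1 E554K, and 2.96 ± 2.13 CPM with PB and 4.15 ± 1.33 CPM with DMSO in SUGP1 G603N (SD, n = 3). The widest group was SUGP1 G603N with PB, at 5.31, 2.4 and 1.15 CPM. Its change was -0.20 ± 0.27 over the SUGP1 lines (adjusted p = 0.693), 0.02 ± 0.27 over the SF3b-pocket lines (adjusted p = 1) and 0.12 ± 0.38 in control (adjusted p = 0.95). For TNFAIP3 over the SUGP1 lines without the third ones, it was -0.04 (adjusted p = 0.961).

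**Figure D3:**
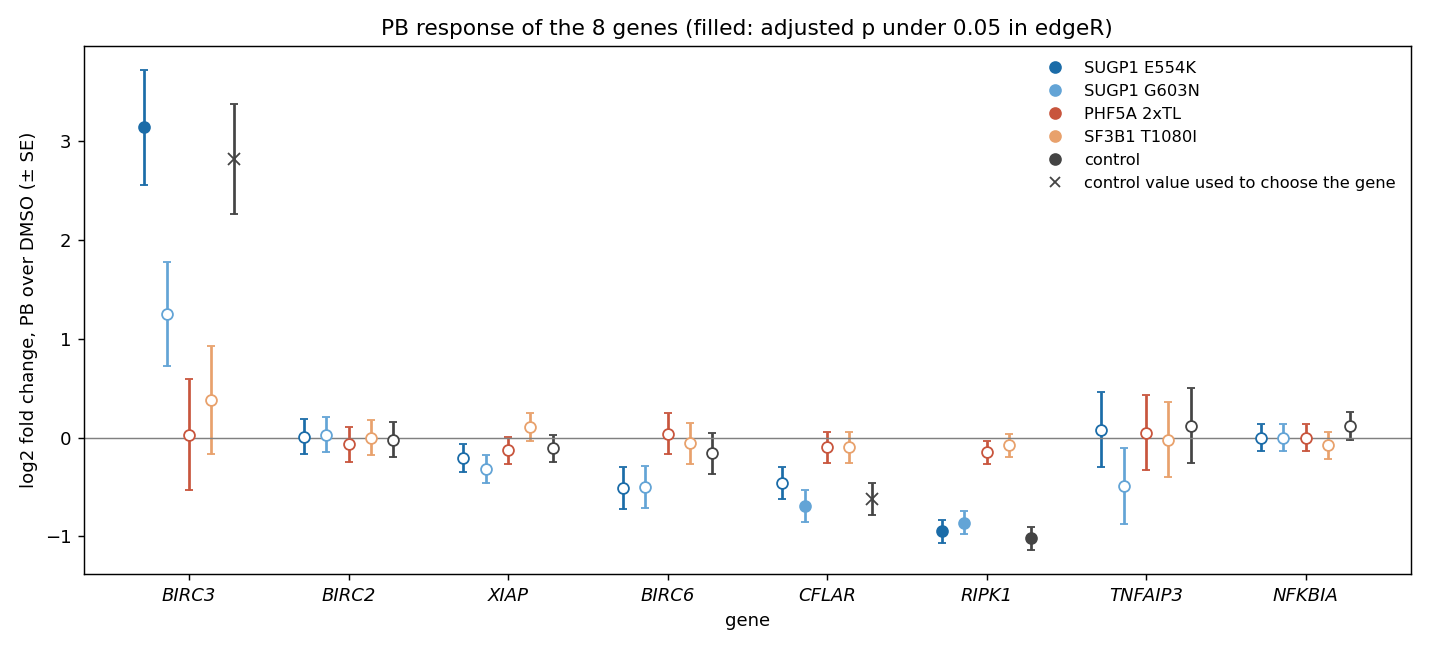
Log2 fold change (PB over DMSO, ± SE from edgeR) of the 8 genes in the 5 genotypes, with filled points for an adjusted p under 0.05 and crosses for the control values by which BIRC3 and CFLAR were chosen. RIPK1 lies between -1.02 and -0.86 in the SUGP1 genotypes and control and between -0.15 and -0.08 in PHF5A 2xTL and SF3B1 T1080I.

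Counted over the 8 genes, PB against DMSO gave 2 called in SUGP1 E554K (1 higher, 1 lower), where 4.32% of all tested genes were called (1.02% higher, 3.3% lower), and 2 in SUGP1 G603N (both lower), where 4.08% were called (1.09% higher, 2.99% lower). Over the pooled SUGP1 lines 4 were called (1 higher, 3 lower), against 12% of all genes (3.91% higher, 8.05% lower). Without the third lines 2 of the 8 were called in SUGP1 E554K (1 higher, 1 lower), against 6.06% of all genes (2.63% higher, 3.43% lower). In SUGP1 G603N 3 were then called (all lower), against 10.9% of all genes (6.88% higher, 4.06% lower), and over the pooled SUGP1 lines 5 (1 higher, 4 lower), against 20.3% (11.4% higher, 8.98% lower). The balance of all called genes in SUGP1 G603N and in the pooled lines was mostly lower with the third lines and mostly higher without them. With all lines, the median change of the 8 genes over the pooled SUGP1 lines was -0.23, against -0.00 over all tested genes. In PHF5A 2xTL, in SF3B1 T1080I and in the pooled SF3b-pocket lines edgeR called none of the 8, against 0.00318% of all genes in each of the 3 comparisons. DESeq2 also called none of the 8 in these, against 1, 3 and 7 of 31492 genes. None of the 8 had an unadjusted p under 0.05, against 1.29%, 0.883% and 1.34% of all genes. In control 3 were called, against 4.3% of all genes (0.987% higher, 3.31% lower), but BIRC3 and CFLAR were chosen on that comparison and nothing is read from their calls. RIPK1 is the only call among the other 6. With the line as a block, SUGP1 E554K had 4 called (1 higher, 3 lower) and the difference between SUGP1 and SF3b-pocket lines had 4 (1 higher, 3 lower), in place of 2 and 1. The numbers of all called genes, out of 31495, rose as well with the block. They came to 986 higher and 2577 lower in SUGP1 E554K, against 321 and 1040 without the block. For the difference they came to 356 higher and 1517 lower, against 126 and 463.

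Groups that did not overlap were 3 of the 8 genes in SUGP1 E554K (17.6% of all genes), 3 in SUGP1 G603N (14%), 2 in PHF5A 2xTL (8.07%), 0 in SF3B1 T1080I (7.74%) and 3 in control (25.2%), where BIRC3 and CFLAR were chosen and the count is a description. Over the 6 libraries of each pooled group they were BIRC3 and RIPK1 in the SUGP1 lines (4.38% of all genes) and none in the SF3b-pocket lines (0.175%). In both SUGP1 genotypes and in control they were BIRC3, CFLAR and RIPK1. In PHF5A 2xTL they were RIPK1 and XIAP, both lower with PB by little (-0.15 and -0.13 on the log2 scale, adjusted p = 1 for both).

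Without the drug, no difference between a mutant and control passed in these genes. With DMSO, edgeR and DESeq2 called none of the 8 genes between any mutant and control. The edgeR backgrounds were 0% (SUGP1 E554K), 0.00635% (SUGP1 G603N), 0.00953% (PHF5A 2xTL) and 0% (SF3B1 T1080I) of all genes. DESeq2 called 1 of 31492 genes in SUGP1 E554K and 7 of 29049 in SUGP1 G603N. It called 33 of 21111 in PHF5A 2xTL and 48 of 18058 in SF3B1 T1080I. Without the third SUGP1 lines the background in SUGP1 G603N was 0.896% (0.0454% higher, 0.85% lower), with none of the 8 called. At an unadjusted p under 0.05, where 3.85%, 5.23%, 4.48% and 3.62% of all genes lay in these 4 comparisons, the one value of the 8 genes was NFKBIA in SUGP1 E554K (31.2 ± 2.68 CPM, against 24.9 ± 5.04 CPM in control, SD, n = 3, log2 fold change 0.32 ± 0.14, adjusted p = 1). RIPK1 averaged 58.4 to 63.8 CPM in the 4 mutants and 56.2 CPM in control, and CFLAR 47.9 to 59.6 CPM in the mutants and 51 CPM in control. The groups overlapped for all 8 genes except BIRC3 in SUGP1 E554K, which lay below control (0.228 ± 0.121 CPM, against 0.38 ± 0.0444 CPM in control). Of all genes, 8.18% did not overlap in SUGP1 E554K, 7.7% in SUGP1 G603N, 12.7% in PHF5A 2xTL and 12% in SF3B1 T1080I.

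Across the 30 libraries, the genes whose log2 CPM ran most like CFLAR were CCDC191 (Pearson r 0.88), AFTPH (0.88), RIPK1 (0.87), OFD1 (0.86) and MED29 (0.86), out of the 16079 genes that averaged 1 CPM or more. Those most like BIRC3 were ENSG00000272054 (0.89), NOP14-AS1 (0.87), ZFHX3-AS1 (0.86), CREBZF (0.84) and TAF1D (0.84). RIPK1 thus ranks among the 5 genes most like CFLAR, while BIRC3 and RIPK1 ran in opposite directions (r -0.83). NFKBIA and TNFAIP3 had r between -0.23 and 0.30 with each of the other 6 genes. These libraries share treatments, lines and scaling, so r describes the set and is given without a test.

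Reads on the opposite strand could enter some of these genes, since no source used here says whether strand was used in counting. CFLAR (chromosome 2, 201116104-201176687, plus strand) contains CFLAR-AS1 and 2 processed pseudogenes on the opposite strand, and 2 noncoding RNA genes on its own. RIPK1 (chromosome 6, 3063991-3115187, plus strand) contains an antisense gene, and the start of TNFAIP3 overlaps the antisense gene WAKMAR2. None of these 3 antisense genes was called with PB in any genotype.

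Beyond these genes, 128 of 141 listed genes of the surrounding pathways were tested. With PB, 7 rose and 11 fell over the SUGP1 lines (14.1%, against 12% of all genes), none was called in the SF3b-pocket lines, and 3 rose and 3 fell in control (4.69%). The share called is near that of all genes in each comparison. By number, most calls fell in the list for the complex that assembles at the TNF receptor and activates IKK, to which RIPK1 belongs by function. Of its 33 tested genes, 2 were higher and 6 lower over the SUGP1 lines, against 3.91% higher and 8.05% lower of all genes. Whether this list differs from all genes was not tested. Of the 18 genes called over the SUGP1 lines, BIRC5, CASP2, SPATA2 and TRAF1 lost their call without the third lines. That fit called 20.3% of all genes, and SPATA2 and TRAF1 are in the TNF receptor list.

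RNF31 (HOIP), the catalytic subunit of the linear ubiquitin ligase that acts on RIPK1 and NEMO, rose. It had 3.39, 6.31 and 3.93 CPM with PB, against 2.24, 0.605 and 1.39 CPM with DMSO in SUGP1 E554K. In SUGP1 G603N, it had 3.94, 3.88 and 7.55 CPM with PB, against 1.03, 1.88 and 0.994 CPM with DMSO. In control, it had 4.64, 4.21 and 4.51 CPM with PB, against 0.875, 1.97 and 1.46 CPM with DMSO. No PB library overlapped a DMSO library in these 3 genotypes, whereas PHF5A 2xTL (2.24 ± 0.441 CPM with PB and 2.03 ± 0.445 CPM with DMSO) and SF3B1 T1080I (1.32 ± 0.387 with PB and 1.31 ± 0.146 with DMSO) overlapped. The change was 1.84 ± 0.28 over the SUGP1 lines (adjusted p = 3.43e-05), 1.63 ± 0.39 in control (adjusted p = 0.0124) and 1.77 ± 0.39 for SUGP1 minus SF3b-pocket lines (adjusted p = 0.0122). The RNF31 change without the third lines was 1.66 over the SUGP1 lines (adjusted p = 7.61e-04) and the difference 1.60 (adjusted p = 0.0203). The control call ended without control DMSO replicate 1 (adjusted p = 0.092). RNF31 overlaps PSME2 on the opposite strand and 2 noncoding genes on its own, so that reads may be shared between these genes.

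TAB1, which activates the kinase TAK1 upstream of IKK, fell. It had 21.5, 24 and 18.5 CPM with PB, against 30.4, 37 and 36.5 CPM with DMSO in SUGP1 E554K. In SUGP1 G603N, it had 24.1, 27.6 and 30.1 CPM with PB, against 40.9, 43.7 and 43.7 CPM with DMSO. The groups did not overlap in either, and the change over the SUGP1 lines was -0.67 ± 0.08 (adjusted p = 2.20e-06), against -0.04 ± 0.08 over the SF3b-pocket lines (difference -0.63 ± 0.12, adjusted p = 0.00319). The TAB1 change without the third lines was -0.58 (adjusted p = 1.29e-04) and the difference -0.54 (adjusted p = 0.00812). In control the change was -0.70 ± 0.12 (adjusted p = 4.70e-04).

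ITCH, a ubiquitin ligase that targets cFLIP for degradation and works with A20, fell as well. Its mean was 55.5 ± 9.18 CPM with PB and 94.2 ± 26.3 CPM with DMSO in SUGP1 E554K, and 54.3 ± 4.94 CPM with PB and 91.6 ± 17.5 CPM with DMSO in SUGP1 G603N (SD, n = 3). Over the SUGP1 lines the change was -0.76 ± 0.12 (adjusted p = 3.77e-05), and that of the SF3b-pocket lines -0.05 ± 0.11 (difference -0.70 ± 0.16, adjusted p = 0.0179). The ITCH change without the third lines was -0.78 (adjusted p = 2.20e-05) and the difference -0.73 (adjusted p = 0.00265). TRAF1, an adaptor that binds BIRC2 and BIRC3 and a textbook NF-κB target, changed by -1.35 ± 0.37 over the SUGP1 lines (adjusted p = 0.0134, and 0.707 ± 0.288 CPM with PB against 1.81 ± 0.485 CPM with DMSO, SD, n = 6), a call that ended on the SUGP1 libraries alone and without the third lines (-1.03, adjusted p = 0.0785). In control TANK, an adaptor of the TBK1 kinase, fell by 0.71 ± 0.15 (adjusted p = 0.00501).

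The list counts in this and the next paragraph stand beside 12% of all genes called over the SUGP1 lines (3.91% higher, 8.05% lower). Among the receptors and ligands, TNFRSF25 (DR3), a death domain receptor, was the single call of 17 tested genes over the SUGP1 lines. It averaged 2.69 ± 0.781 CPM with PB and 5.08 ± 0.685 CPM with DMSO (SD, n = 6; log2 fold change -0.92 ± 0.20, adjusted p = 0.00201), and it overlaps PLEKHG5 on its strand and ESPN on the other. Among 17 adaptors and caspases, CASP8, the initiator that CFLAR competes with, rose by 0.42 ± 0.11 (adjusted p = 0.0118; 28 ± 3.84 CPM with PB and 21 ± 2.44 CPM with DMSO), CASP2 rose by 0.32 ± 0.09 (adjusted p = 0.0157), and CASP9 fell by 0.47 ± 0.14 (adjusted p = 0.0253). The CASP8 call ended on the SUGP1 libraries alone or without SUGP1 E554K DMSO replicate 2 (adjusted p up to 0.0574). That of CASP2 ended in the same 2 fits and without the third lines (up to 0.0767), and that of CASP9 in 9 of 19 alternatives, 7 of them with 1 library left out (up to 0.2). In control, CASP2 rose by 0.47 ± 0.12 (adjusted p = 0.0243), a call lost in 6 of 12 alternatives.

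Of the 7 other IAPs and antagonists tested, NAIP, an IAP-family sensor, fell by 0.79 ± 0.24 over the SUGP1 lines (adjusted p = 0.0306), and BIRC5 (survivin) rose by 0.22 ± 0.07 (adjusted p = 0.0331), calls lost in 6 and 8 of 19 alternatives (adjusted p up to 0.203 and 0.0912). Of the 4 necroptosis genes tested, none passed in the same fit, and their median change was -0.04. Of the 44 tested NF-κB target genes, 2 rose and 3 fell, with a median of -0.15 against -0.00 over all genes. Those called were NFKB1, TRAF1, IRF1 (-0.59 ± 0.20, adjusted p = 0.0495, lost in 13 of 19 alternatives), GADD45B (0.57 ± 0.18, adjusted p = 0.0365, lost in 10 of 19) and KLF6 (0.40 ± 0.11, adjusted p = 0.0131, lost on the SUGP1 libraries alone). NFKB1, which encodes the p105 precursor of an NF-κB subunit, was also the single call of 13 NF-κB subunits and inhibitors (-0.35 ± 0.10, adjusted p = 0.0176, lost in 8 of 19). In control KLF6 rose by 0.53 ± 0.15 (adjusted p = 0.0414) and NFKB1 fell by 0.52 ± 0.14 (adjusted p = 0.0276), each lost in 6 of 12 alternatives.

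**Figure D4:**
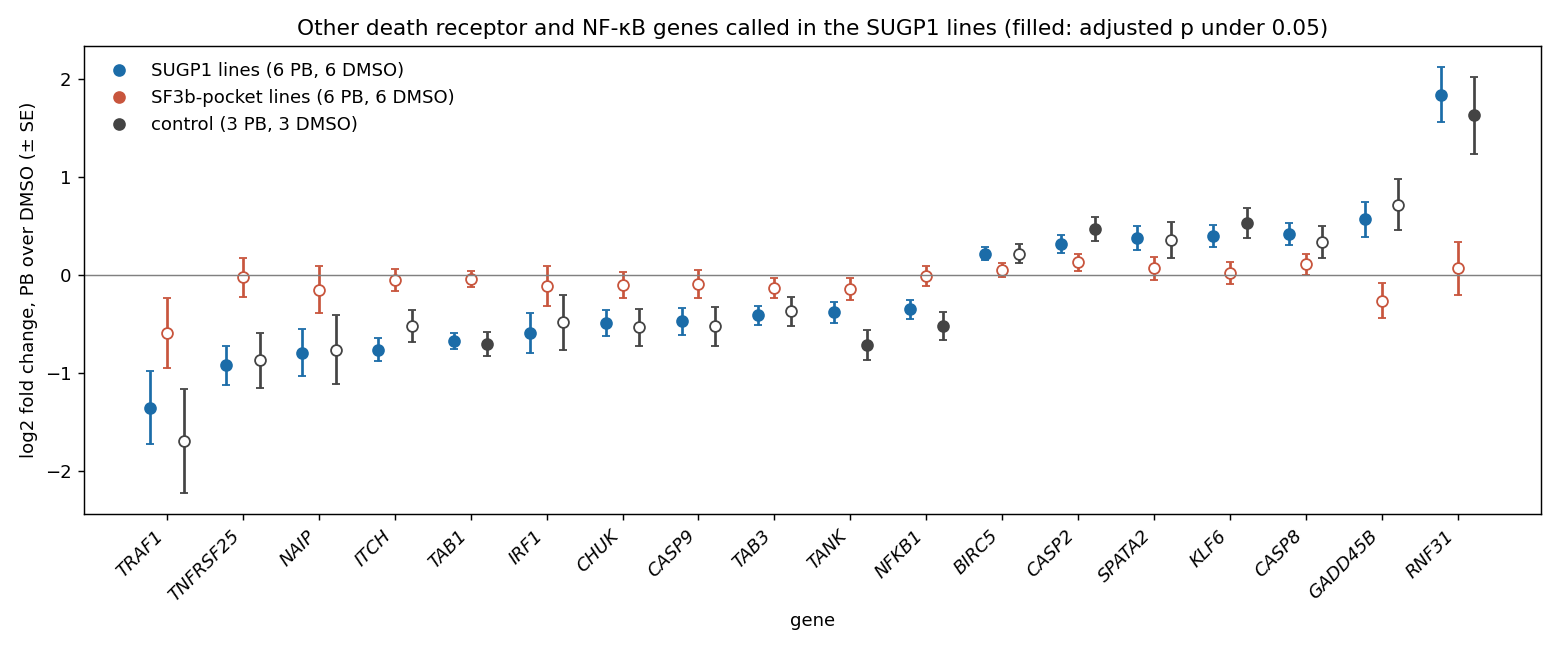
Log2 fold change (PB over DMSO, ± SE from edgeR) of the 18 pathway genes called in the SUGP1 lines, in the SUGP1 lines, the SF3b-pocket lines and control, with filled points for an adjusted p under 0.05. RNF31 stands highest at 1.84 in the SUGP1 lines and 1.63 in control, against 0.07 in the SF3b-pocket lines, where none of the 18 is filled.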

How the data were processed

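Per the labels' protocols, paired-end reads came from CORALL libraries of poly(A) RNA. The submitters' processing notes name hg38, SAMtools 1.10, STAR and UMI-tools. For the counting, neither program nor annotation, strandedness or handling of multi-mapped reads is given in the sources used here. The authors deposited 1 table of estimated counts (expected counts, not normalized) for 61487 genes and 30 libraries, in which 65.5% of values above 0 are not whole.

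After rounding to integers, edgeR 4.0.16 under R 4.3.3 was applied: filterByExpr over 10 groups kept 31495 genes, TMM scaling, 1 quasi-likelihood model over all libraries and 16 contrasts. P-values were adjusted by the Benjamini-Hochberg method over all tested genes, with 0.05 as the limit for a call. Standard errors are approximate, being derived from F. CPM is per 1000000 TMM-scaled counts. Changes within lines and correlations used log2 CPM with a prior count of 2. Pooled contrasts are means of 2 genotypes' responses. Tests on simulated counts shaped like PB against DMSO in SUGP1 E554K (30161 genes) called 12% of genes changed by 0.5 on the log2 scale, 86% at 1, 98% at 2 and 100% at 3. The changed genes, 50 per size, were drawn from those with a mean of at least 4 CPM. BIRC3 and TNFAIP3 averaged less, so these rates do not cover them. The simulated counts held no pairing of PB and DMSO libraries by line.

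The genes, the pathway and marker lists (7 pathway lists, 141 genes) and the comparisons were chosen with earlier results of these data known. Of the genes on the pathway lists, those called were counted and up to 4 per list and comparison with a mean of at least 1 CPM and the largest change were named. The 5 genes most like BIRC3 and CFLAR were named by Pearson correlation.

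The labels give 1 monoclonal line for both same-numbered libraries (PB and DMSO) of a mutant. Their deviations from the group means correlated at 0.424 to 0.837, and those of control at 0.212 to 0.436, each library best with its own number (12 of 12 and 3 of 3 pairs). PB comparisons were therefore refitted with the number as a block. Mutant and control lines share only a number (-0.216 to 0.289).

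Alternatives were RLE scaling, no filter, at least 1 CPM in 3 libraries, the block, only the groups compared, DESeq2 1.42.0, each of 30 libraries left out and, chosen after seeing the data, the SUGP1 lines numbered 3 left out. Gene positions are from GENCODE 29 (hg38), in which 58312 identifiers were found, and start windows are from RefSeq (GRCh38.p14).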

Additional observations from a re-analysis of the deposited data

Results flagged for a closer look

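Differences in the PB response between groups of lines that passed their own test in edgeR, without a line block, were seen for 4 genes. In SUGP1 minus SF3b-pocket lines, RIPK1 differed by -0.79, RNF31 by 1.77, ITCH by -0.70 and TAB1 by -0.63 on the log2 scale. RNF31, ITCH and TAB1 were the calls among the 128 tested pathway genes (2.34%), a share near that of all genes (1.87%). In comparisons with 0.26% and 0.286% of all genes called, RIPK1 differed by 0.87 in PHF5A 2xTL minus control and by 0.94 in SF3B1 T1080I minus control. Its level went down with PB in 6 of 6 SUGP1 lines by 0.48 to 1.22 and in 3 of 3 control cultures by 0.93 to 1.07, while the 6 SF3b-pocket lines ranged from -0.17 to 0.01. The differences from control rest on the same 6 control libraries.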

How the results depend on the processing

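Over 2032 values of the 8 genes under the alternatives, 1980 kept their side of the threshold, 32 lost their call and 20 gained one. No called value changed sign, and 177 values called in neither fit did. In SUGP1 E554K the block gave 4 called genes of the 8 and the groups alone 0, in SUGP1 G603N the groups alone 0. For SUGP1 minus SF3b-pocket lines the count was 2 with at least 1 CPM in 3 libraries, with DESeq2 and without the third SUGP1 lines, and 4 with the replicate block, against 1. For PHF5A 2xTL minus control it was 0 without the filter, 2 with the groups alone and 2 with DESeq2, against 1. Of all genes, these fits called 44 of 57619, 203 of 26848 and 288 of 19280, against 82 of 31495. The added call with the groups alone and with DESeq2 is BIRC3, chosen on these control libraries, so nothing is read from it. With each library left out, the counts ran from 1 to 2 in SUGP1 G603N, from 1 to 2 for SUGP1 minus SF3b-pocket lines, and from 0 to 1 for PHF5A 2xTL minus control and for SF3B1 T1080I minus control. The numbers of all genes called in these fits are not given here, so the ranges are a description. Over all genes, the block called 6498 over the SUGP1 lines against 3767, 3563 in SUGP1 E554K against 1361, 2913 in SUGP1 G603N against 1284, 2943 in control against 1354, and 1873 for the difference against 589, while the groups alone called 78, 1 and 1633 in SUGP1 E554K, SUGP1 G603N and the pooled SUGP1 lines. In control the CFLAR value, a description, was on the other side of the threshold without DMSO replicate 1 (adjusted p = 0.0783) or 2 (0.0977) or PB replicate 1 (0.0853) or 3 (0.133). Of all genes, the SUGP1 minus SF3b-pocket difference called 342 without the filter and 857 of 18416 with at least 1 CPM in 3 libraries. It called 1039 with DESeq2 and 2643 without the third SUGP1 lines. The cause of these changes was not tested, although the groups-alone fits hold fewer libraries. The replicate block changed no other count of called genes among the 8 by over 1.5 times, and beyond the calls given with the results it changed none. The number of replicates pairs no mutant with control, and the block called none of the 8 genes with DMSO. BIRC3 had 7 to 134 counts per library, which limits the precision of its values.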
